A study of Homo sapiens with 16 samples.

Results

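The GAGE and CTAG cancer-testis antigens are described here across 16 libraries of polyA RNA from 2 human lung cell lines. The members were 8 gene entries chosen by name, 6 of the GAGE family (GAGE1, GAGE4, GAGE5, GAGE8, GAGE12E and GAGE12I) and 2 of the CTAG family (CTAG1A and CTAG2), of 23709 entries in each library's table. The tables hold 22 GAGE entries and 3 CTAG entries in all, so 16 GAGE entries and CTAG1B were not members and were used only to follow how reads were split between copies. The study compared 4 groups of cells, each as mRNA, ribosome-nascent chain complex (RNC), cytosol and nuclear RNA, and every combination of cells and RNA is a single library. The tumour line was H1299, from a lung carcinoma of the non-small cell kind, transfected by lipofection with a plasmid for Flag-tagged FLII (called FLII) or with the empty Flag plasmid (called vector). The other line, HBE, of lung epithelium, carried a stable lentiviral short hairpin RNA against FLII (called shFLII) or was the control named NC. All cells were at passage 15 to 18. FLII is the flightless I protein, a gelsolin relative with leucine-rich repeats. Overexpression therefore existed in 1 line and knockdown in the other, and the labels do not say whether the shFLII cells were a clone or a pool.

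Cancer-testis antigens are proteins made by germ cells of the testis, silent in most other adult tissues, and made again by many tumours. The GAGE and CTAG genes lie on the X chromosome in clusters of copies of nearly the same sequence. CTAG1A and its copy CTAG1B encode NY-ESO-1, and CTAG2 encodes LAGE-1, both targets of tumour immunotherapy because T cells recognise their peptides. GAGE proteins are small, acidic and found in the nucleus and cytoplasm, and their function is not settled. DNA methylation of the promoters is the known means by which normal cells keep cancer-testis genes silent.

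How alike the copies are can be read from their coding sequences, which are shown because they set how far 1 entry can be told from another. The windows below come from GENCODE release 29 transcripts on chromosome X of GRCh38, a later build than the GRCh37 and hg19 named in the submitters' processing notes. Each is 90 bases of sense strand, and capitals mark the bases that differ within the pair. The GAGE pair was taken at coding positions 134 to 223 and the CTAG pair at 200 to 289.
GAGE1: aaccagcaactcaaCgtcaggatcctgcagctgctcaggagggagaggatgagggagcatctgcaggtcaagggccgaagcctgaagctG
GAGE12E: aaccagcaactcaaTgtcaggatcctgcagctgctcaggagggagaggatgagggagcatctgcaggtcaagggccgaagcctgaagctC
CTAG1A: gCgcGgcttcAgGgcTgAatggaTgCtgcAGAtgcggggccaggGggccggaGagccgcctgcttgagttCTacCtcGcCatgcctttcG
CTAG2: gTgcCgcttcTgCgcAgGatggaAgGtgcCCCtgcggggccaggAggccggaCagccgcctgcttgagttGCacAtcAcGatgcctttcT
The GAGE pair differed at 2 of 90 bases, and the GAGE1 window was also found whole in GAGE13, GAGE12J and GAGE10. The GAGE12E window was also found whole in GAGE12C and GAGE12D. Over the whole coding sequence GAGE1 and GAGE12E were 98.9% identical, with 4 of 351 aligned bases different, and GAGE12E and GAGE12G differed at 1 base. Every 50-base stretch of the GAGE12E transcript occurred in another gene's transcript, so a 50-base read inside it could not be assigned by sequence alone. For GAGE1 this share was between 10.2% and 78.3% over its 4 annotated transcripts. The CTAG pair differed at 19 of 90 bases, where it was most divergent, and at 40 of 540 coding bases. CTAG1A and CTAG1B transcripts of 748 bases were identical throughout. Annotation of that release was found for 4 of the 8 members (GAGE1, GAGE12E, CTAG1A and CTAG2).

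The copies share their upstream sequence as well. RefSeq promoter windows on GRCh38.p14 were found for 2 members, GAGE1 and GAGE12E, and the 250 bases before the GAGE12E start are shown with CG dinucleotides, the bases that DNA methylation acts on, in capitals. They lie at chrX:49551039-49551288 on the plus strand.
GAGE12E promoter: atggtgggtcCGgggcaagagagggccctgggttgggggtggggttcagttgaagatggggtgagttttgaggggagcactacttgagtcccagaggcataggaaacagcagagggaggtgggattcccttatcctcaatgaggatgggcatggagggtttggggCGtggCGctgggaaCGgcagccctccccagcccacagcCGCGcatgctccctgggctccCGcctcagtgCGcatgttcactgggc
The same 250 bases stood before starts of 9 gene symbols, GAGE1 among them. The windows of GAGE12B and GAGE12G and another window of GAGE1 were shifted in position, with 0 aligned bases changed. Only the GAGE10 window differed in sequence, with 26 aligned bases changed. The window held 8 CG, against a median of 11 over 35116 promoter windows, and 56.3% of all windows held 8 or more. Neither GGGCGG nor TATAAA was found in it on either strand. GGGCGG was found in 42.6% and TATAAA in 10.7% of all windows.

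Each table gives a read count and an RPKM per entry, which scales reads to the stated gene length and to the reads of the library. The mRNA libraries held 5943676 to 8344359 reads assigned to genes and the RNC libraries 26711771 to 38514467. Between 5914489 and 9259569 were assigned in a cytosol library and between 6295282 and 8201848 in a nuclear one. Levels are also given as CPM, the reads of an entry per 1000000 reads assigned to genes. FLII itself followed the labels in mRNA, cytosol and nuclear libraries, with 626 RPKM in FLII and 143 RPKM in vector mRNA of H1299, and 13.8 RPKM in shFLII and 75.3 RPKM in NC mRNA of HBE. The H1299 pair of RNC libraries went against its labels: the library labelled H1299 FLII had 5.61 RPKM of FLII and the library labelled H1299 vector had 89.2 RPKM. In the HBE pair FLII was lower under the label shFLII, with 30.0 RPKM, than under the label NC, with 36.5 RPKM. Every RNC result is therefore given for "the library labelled" so, and results of the other fractions do not use the RNC libraries. Of 320 genes typical of HBE, the median level was 91.8% of that in HBE NC cytosol in the RNC library labelled H1299 FLII, 2.03% in the one labelled HBE shFLII and 0.641% in the one labelled H1299 vector. It was 45.4% in the one labelled HBE NC. The same median was 2.30% in H1299 FLII cytosol and 0.251% in H1299 vector cytosol. Whether the labels, the cells or the preparation differed there was not tested. Epithelial markers were lower in H1299 than in HBE for 12 of 12 genes in mRNA. By the calls defined below, 4 of 6 mesenchymal markers were higher in H1299 vector mRNA and 1 lower. Of all genes, 21.2% were called higher in that comparison and 22.4% lower. No spermatogenic or germ cell marker of 20 reached 5 CPM in any mRNA, cytosol or nuclear library of H1299. In these libraries 9 of the 20, among them DAZL, STRA8, PRM1 and PRM2, had no read. In nuclear RNA 2 of the 20 had enough reads, and both were called higher in H1299 vector, where 22.3% of all genes were. In cytosol 0 of 2 were called, where 26.7% of all genes were called higher and 22.2% lower.

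With 1 library per group, no replicate spread exists, so the intervals below are 95% intervals of counting error only (exact Poisson for a level, exact binomial for a fold or a share) and no test of the conditions was run. The fractions of one cell group were not taken as replicates of it. PCR copies are not independent molecules, so real error is larger. A fold is given as log2 of reads scaled by TMM (trimmed mean of M-values, which sets the bulk of genes to no change), with 0.5 reads added, for entries with at least 20 reads over the pair. An entry was called higher or lower when the log2 fold was at least 1 in size and its interval excluded 0.

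The GAGE and CTAG members were abundant in H1299 and close to the detection limit in HBE, in every fraction apart from the RNC libraries as labelled. In H1299 vector mRNA the 6 GAGE members together took 1756 CPM (1722 to 1790), against 2.18 CPM (1.29 to 3.44) in HBE NC mRNA. The 2 CTAG members together took 354 CPM (339 to 370) in H1299 vector mRNA, against 0.242 CPM (0.0293 to 0.873) in HBE NC mRNA. The 6 H1299 and 6 HBE libraries of mRNA, cytosol and nuclear RNA did not overlap for either sum: GAGE ran from 1756 to 5715 CPM in H1299 and from 1.73 to 8.66 CPM in HBE, and CTAG from 354 to 1831 CPM in H1299 and from 0 to 2.13 CPM in HBE. The share of all genes without such overlap was not counted. A count of 0 allowed up to 3 reads, or 0.324 to 0.507 CPM in these 12 libraries.

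**Figure D1:**
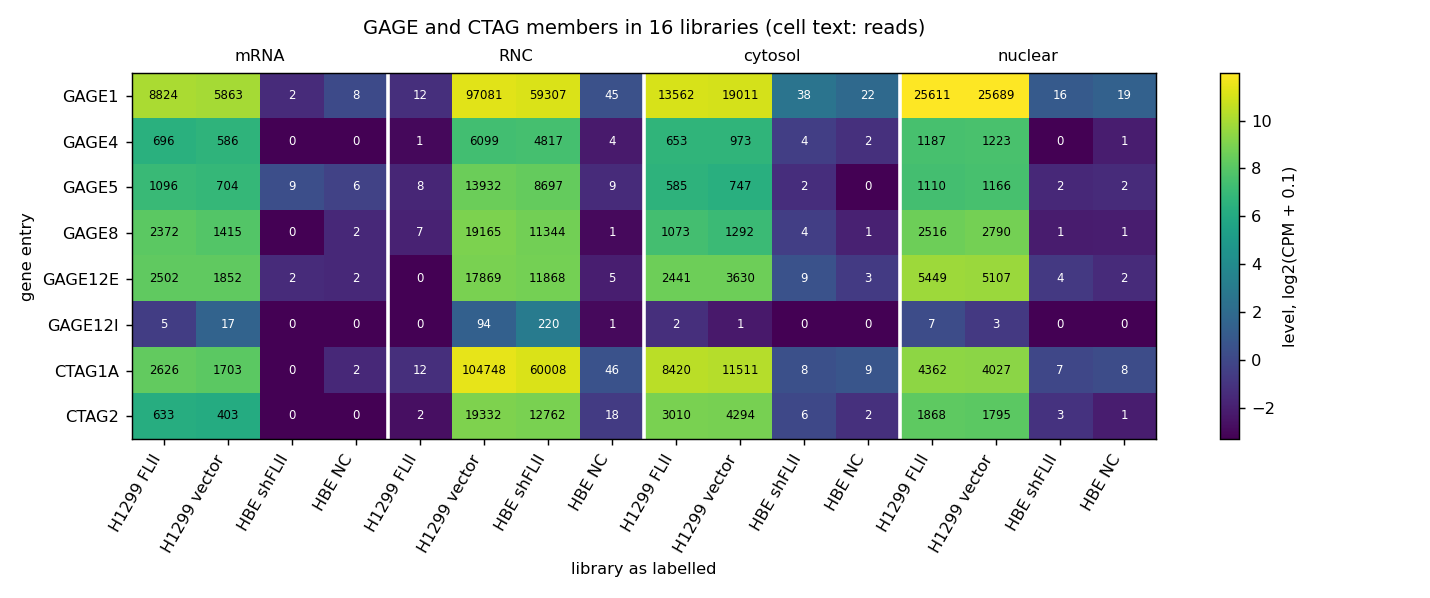
Reads (cell text) and level as log2(CPM + 0.1) (colour) of the 8 members in each of 16 libraries, grouped by fraction as labelled. All H1299 libraries outside RNC were high and all HBE ones low for 7 members, and GAGE12I was low in all of these. Within RNC the high libraries were those labelled H1299 vector and HBE shFLII, where GAGE12I had 94 and 220 reads.

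GAGE1, the entry with most reads of the family, had 5863 reads in H1299 vector mRNA, against 8 reads in HBE NC mRNA. In cytosol it had 19011 reads in H1299 vector, against 22 in HBE NC, and in nuclear RNA 25689 reads in H1299 vector, against 19 in HBE NC. In the other arms it had 8824 reads in H1299 FLII mRNA, against 2 in HBE shFLII mRNA, 13562 in H1299 FLII cytosol, against 38 in HBE shFLII cytosol, and 25611 in H1299 FLII nuclear RNA, against 16 in HBE shFLII nuclear RNA. It was the 14th entry by reads of the whole H1299 vector nuclear library and the 15th of the FLII one. Its RPKM rests on a stated length of 3141 bases, while the other GAGE entries are listed at 354 to 585 bases, so levels per length of GAGE1 and of the others are not on equal terms.

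CTAG1A, the NY-ESO-1 entry, had 1703 reads in H1299 vector mRNA, against 2 in HBE NC mRNA. In cytosol it had 11511 reads in H1299 vector, against 9 in HBE NC, and in nuclear RNA 4027 reads in H1299 vector, against 8 in HBE NC. In the other arms CTAG1A had 2626 reads in H1299 FLII mRNA, against 0 in HBE shFLII mRNA, 8420 in H1299 FLII cytosol, against 8 in HBE shFLII cytosol, and 4362 in H1299 FLII nuclear RNA, against 7 in HBE shFLII nuclear RNA. CTAG2, the LAGE-1 entry, had 403 reads in H1299 vector mRNA, against 0 in HBE NC mRNA. Its level in H1299 vector mRNA was thus at least 156-fold higher than 3 reads in HBE NC mRNA would give.

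CTAG2 had 633 reads in H1299 FLII mRNA, against 0 in HBE shFLII mRNA. In cytosol it had 3010 reads in H1299 FLII and 4294 in H1299 vector, against 6 in HBE shFLII and 2 in HBE NC. In nuclear RNA it had 1868 reads in H1299 FLII and 1795 in H1299 vector, against 3 in HBE shFLII and 1 in HBE NC. Its 6 H1299 libraries were thus all high and its 6 HBE libraries all near 0.

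The remaining GAGE entries, apart from GAGE12I, had the same split. GAGE12E had 2502 reads in FLII and 1852 in vector mRNA of H1299, 2441 in FLII and 3630 in vector cytosol, and 5449 in FLII and 5107 in vector nuclear RNA, against 2 to 9 reads in the 6 HBE libraries. GAGE8 had 2372 reads in FLII and 1415 in vector mRNA, 1073 in FLII and 1292 in vector cytosol, and 2516 in FLII and 2790 in vector nuclear RNA, against 0 to 4 reads in HBE. These 2 entries differ in where they were highest relative to each other, with GAGE12E ahead by most in cytosol.

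GAGE5 had 1096 reads in FLII and 704 in vector mRNA, 585 in FLII and 747 in vector cytosol, and 1110 in FLII and 1166 in vector nuclear RNA, against 0 to 9 reads in HBE. GAGE4 had 696 reads in FLII and 586 in vector mRNA, 653 in FLII and 973 in vector cytosol, and 1187 in FLII and 1223 in vector nuclear RNA, against 0 to 4 reads in HBE. For all 4 entries the H1299 and HBE libraries did not overlap, and the share of all genes without overlap was not counted.

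The log2 fold of H1299 vector over HBE NC was 9.35 (8.73 to 10.15) for the GAGE sum and 9.91 (8.40 to 13.3) for the CTAG sum in mRNA. In cytosol it was 8.71 (8.19 to 9.32) for GAGE and 9.33 (8.54 to 10.38) for CTAG, and in nuclear RNA 10.44 (9.91 to 11.1) for GAGE and 9.24 (8.39 to 10.45) for CTAG. All 7 members with 20 reads over the pair were called higher in each of the 3 fractions, where 21.2% of genes in mRNA, 26.7% in cytosol and 22.3% in nuclear RNA were called higher. The shares called lower were 22.4% in mRNA, 22.2% in cytosol and 23.1% in nuclear RNA. Members lay at the far end of that distribution: at most 1.60% of genes had a fold as large as any of the 7 in mRNA, and GAGE12E, GAGE8 and GAGE1 ranked 2nd, 3rd and 6th of 13220 genes in nuclear RNA. The members were chosen with earlier results of these data known, and passed the filter almost wholly through their H1299 reads. These calls and ranks are thus a description and not separate support for the restriction. GAGE4 was at least 226-fold higher in H1299 vector mRNA and GAGE5 at least 115-fold higher in H1299 vector cytosol, each against a count of 0 in HBE NC taken as 3 reads. GAGE12I had 17 reads in H1299 vector mRNA, against 0 in HBE NC mRNA, and too few reads to be counted in cytosol and nuclear RNA, with 1 and 3 reads in H1299 vector, against 0 in HBE NC.

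Per length, the order of the entries within H1299 vector changed with the fraction. In mRNA GAGE12E stood first with 553 RPKM, followed by GAGE8 with 458, CTAG1A with 383, GAGE1 with 314, GAGE5 with 227, GAGE4 with 187, CTAG2 with 68.3 and GAGE12I with 5.70 RPKM. In cytosol CTAG1A stood first with 1662 RPKM, ahead of GAGE12E with 695, GAGE1 with 654 and CTAG2 with 467 RPKM. In nuclear RNA GAGE12E was first with 1438 RPKM, ahead of GAGE1, of CTAG1A with 855 and of GAGE8 with 852 RPKM, and the last 2 of these differed by less than their counting error. In FLII mRNA GAGE8, with 547 RPKM, stood ahead of GAGE12E, with 532 RPKM, the reverse of the vector library. These 2 values in FLII mRNA also differed by less than their counting error. Near-identical copies can trade reads, so these orders hold for the entries as counted and not for the loci.

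**Figure D2:**
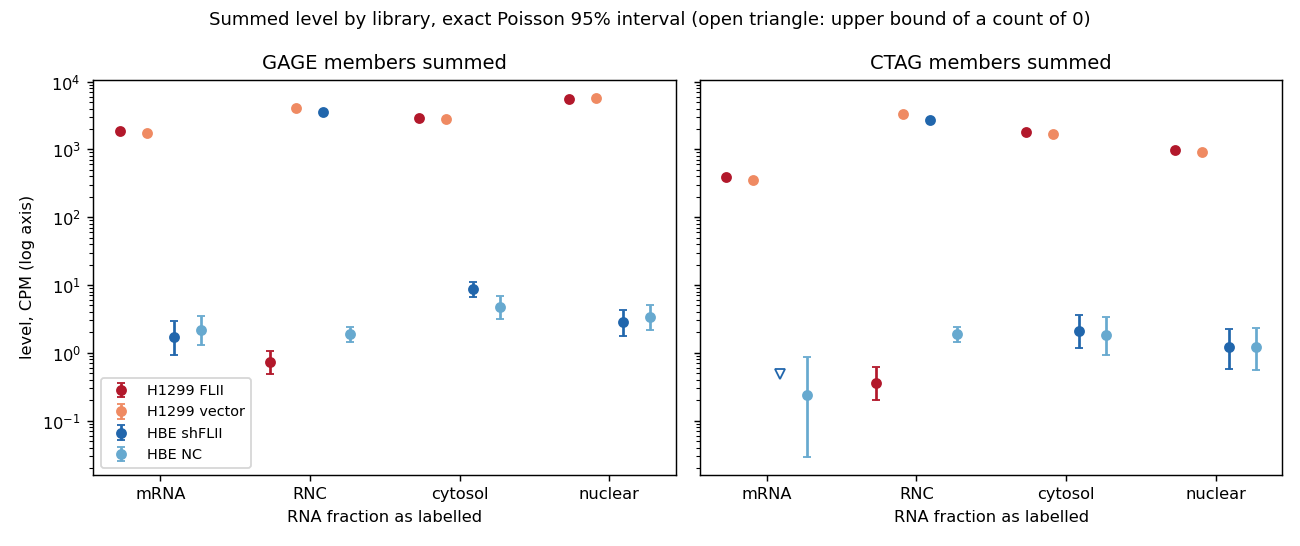
Summed level of the 6 GAGE members (left) and the 2 CTAG members (right) in each library, in CPM on a log axis, with exact Poisson 95% intervals. Outside RNC, H1299 libraries lie between 354 and 5715 CPM and HBE libraries at or below 8.66 CPM. In RNC the libraries labelled H1299 vector and HBE shFLII are the high ones.

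GAGE and CTAG members differed in their relative levels in nuclear and cytosol libraries. In H1299 vector cells the GAGE sum was 5715 CPM (5656 to 5774) in nuclear RNA, against 2771 CPM (2737 to 2805) in cytosol, while the CTAG sum was 925 CPM (901 to 949) in nuclear RNA, against 1707 CPM (1680 to 1734) in cytosol. The FLII cells gave 5576 CPM (5519 to 5634) in nuclear RNA and 2934 CPM (2891 to 2976) in cytosol for GAGE, and 968 CPM (944 to 993) in nuclear RNA and 1831 CPM (1797 to 1865) in cytosol for CTAG. In both arms the CPM of the families thus moved opposite ways between the fractions. CPM is a share of each library and does not give how the molecules of a cell were split between nucleus and cytosol.

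The read ratio of GAGE to CTAG members, which no scaling between libraries can change, was 6.18 (6.01 to 6.35) in nuclear RNA and 1.62 (1.59 to 1.66) in cytosol of vector cells. In FLII cells it was 5.76 (5.61 to 5.92) in nuclear RNA and 1.60 (1.57 to 1.64) in cytosol. The ratio was therefore 3.81 times higher in nuclear RNA than in cytosol in vector cells and 3.59 times in FLII cells. In the RNC library labelled H1299 vector it was 1.24 (1.23 to 1.25) and in the one labelled HBE shFLII 1.32 (1.31 to 1.34), closer to the cytosol value. In mRNA it was 4.76 (4.58 to 4.94) in FLII cells and 4.96 (4.73 to 5.20) in vector cells, closer to the nuclear than to the cytosol value. This ratio was set up after the levels had been seen.

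On the TMM scale the log2 fold of nuclear over cytosol in vector cells was 0.72 (0.69 to 0.74) for the GAGE sum, which is under the calling size, and -1.21 (-1.26 to -1.17) for the CTAG sum, called lower. In FLII cells it was 0.38 (0.36 to 0.41) for GAGE and -1.46 (-1.51 to -1.42) for CTAG, called lower. Of the 7 members kept in vector cells 1 was called higher, GAGE8, where 14.8% of genes were called higher, and 2 were called lower, CTAG1A and CTAG2, where 12.7% of genes were called lower. Of the 7 kept in FLII cells 0 were called higher, where 17.9% of genes were, and CTAG1A and CTAG2 were called lower, where 18.3% of genes were.

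CTAG1A had a log2 fold of -1.29 (-1.34 to -1.24) and CTAG2 of -1.03 (-1.11 to -0.95) in vector cells. In FLII cells these were -1.54 (-1.59 to -1.48) for CTAG1A and -1.28 (-1.36 to -1.19) for CTAG2. Total-count scaling put the median of all genes at 0.32 in vector cells and 0.59 in FLII cells, where TMM put it at -0.0015 and 0.05. On that scale CTAG1A was at -0.96 in vector and -0.99 in FLII cells and CTAG2 at -0.70 in vector and -0.73 in FLII cells, still lower but no longer called. The same scaling raised the share of higher among all calls to 80.8% in vector cells and 83.8% in FLII cells, against 53.9% and 49.4% with TMM.

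The GAGE entries were all above 0: in vector cells GAGE8 was at 1.34 (1.24 to 1.44), GAGE5 at 0.87 (0.74 to 1.006), GAGE12E at 0.72 (0.66 to 0.78), GAGE1 at 0.66 (0.64 to 0.69) and GAGE4 at 0.56 (0.44 to 0.68). In FLII cells they lay between 0.28 for GAGE4 and 0.64 for GAGE8. With total counts GAGE12E in both arms, GAGE5 in vector cells and GAGE8 in FLII cells passed the calling size, with log2 folds between 1.05 and 1.20.

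Short genes as a class lay on the cytosol side, so the CTAG values stand against that background. Of 686 kept genes with a stated length of 500 to 1000 bases in vector cells, the median log2 fold was -0.47, against -0.0015 for all genes, and 23.3% were called lower. In FLII cells the median was -0.68 over 681 such genes and 39.2% were called lower. CTAG1A was lower than 87.2% of the short genes in vector cells and 84.7% in FLII cells, and CTAG2 lower than 77.4% in vector and 72.2% in FLII cells. GAGE8, GAGE5, GAGE12E and GAGE4 were on the other side, with 2.62%, 6.997%, 8.89% and 13.4% of the short genes at or above them in vector cells. The part of gene length in these folds, and of the epithelial markers that summed to 27.0 CPM in nuclear RNA and 150 CPM in cytosol of FLII cells, was not tested, and how the cytosol and nuclear RNA were separated is not given in the sources used here.

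**Figure D3:**
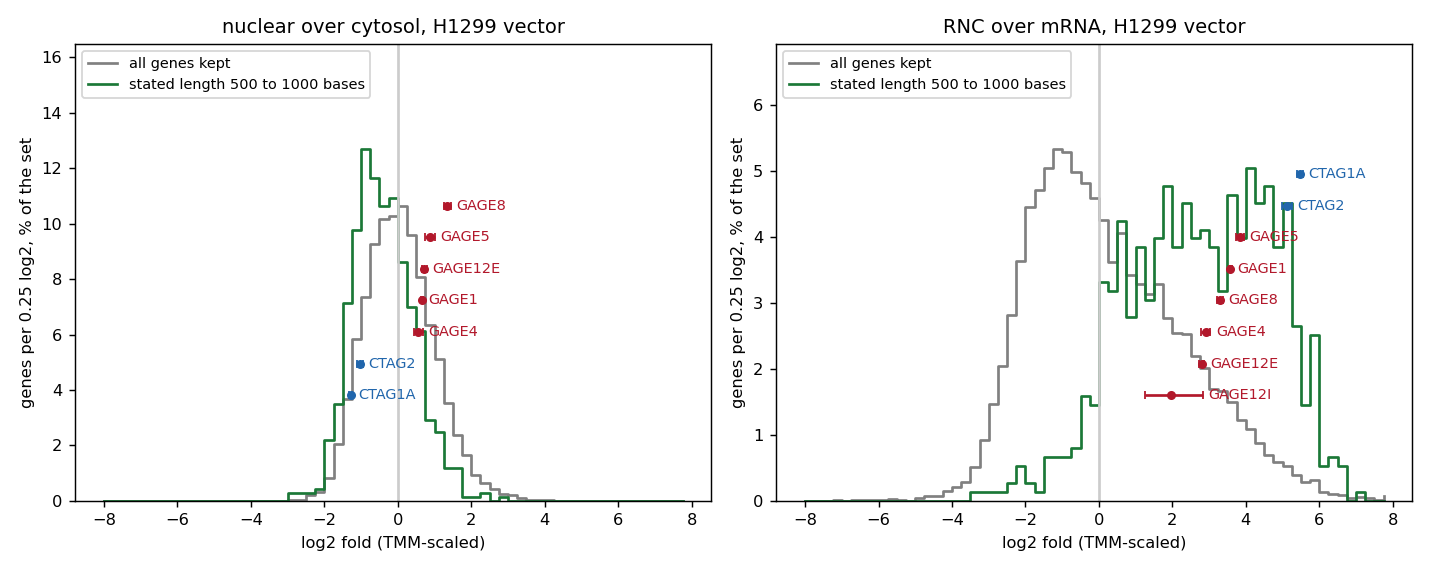
Log2 fold of nuclear over cytosol (left) and of RNC over mRNA for the libraries labelled H1299 vector (right), as the share of genes per 0.25 log2 for all genes and for genes of 500 to 1000 bases. Points with 95% counting intervals are the members kept, at arbitrary heights. GAGE entries lie right of 0 and CTAG entries left of 0 on the left, and all lie right of 0 on the right, with the short genes.

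In the RNC library labelled H1299 vector, which holds RNA pelleted with ribosomes, CTAG reads were enriched over the mRNA library more than GAGE reads were. The CTAG sum was 3298 CPM (3280 to 3317) in RNC, against 354 CPM (339 to 370) in mRNA, and the GAGE sum was 4100 CPM (4080 to 4121) in RNC, against 1756 CPM (1722 to 1790) in mRNA. The log2 fold of RNC over mRNA was 5.41 (5.35 to 5.48) for CTAG and 3.42 (3.39 to 3.45) for GAGE on the TMM scale. CTAG1A had 104748 reads in RNC, against 1703 in mRNA, with a log2 fold of 5.47 (5.41 to 5.54), and CTAG2 had 19332 reads, against 403, with 5.11 (4.97 to 5.26). The order of the entries held for mRNA as the base and not for cytosol. As a share of the CPM in H1299 vector cytosol, CTAG2 stood at 111% in that RNC library and CTAG1A at 224%. GAGE12E stood at 121%, GAGE1 at 126%, GAGE4 at 154%, GAGE8 at 365% and GAGE5 at 459%. The sums stood at 148% for GAGE and 193% for CTAG.

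The GAGE entries ran from 1.97 (1.24 to 2.84) for GAGE12I, with 94 reads in RNC and 17 in mRNA, to 3.84 (3.73 to 3.95) for GAGE5, with 13932 reads in RNC and 704 in mRNA. All 8 members were called higher, where 32.6% of genes were called higher and 31.6% lower. Of 754 genes of 500 to 1000 bases, however, 78.0% were called higher and the median was 2.81, against -0.09 for all genes. GAGE12E, at 2.80, had 50.1% of these short genes at or above it and GAGE5 34.1%, so the GAGE entries lay inside the bulk of short genes. CTAG1A and CTAG2 had 6.37% and 11.01% of the short genes at or above them.

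This comparison also depended on the scaling. With total counts the median of all genes was -2.26, the GAGE sum was at 1.22 and the CTAG sum at 3.22, while GAGE4 at 0.72 and GAGE12E at 0.61 lost their call and GAGE12I turned to -0.19. With TMM 50.8% of all calls were higher, and with total counts 11.52%.

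For 3 members the mRNA level was at or under 50% of the level in both fractions. In vector cells GAGE1 was at 986 CPM in mRNA, against 4081 in nuclear RNA and 2053 in cytosol. CTAG1A was at 287 CPM in mRNA, against 640 in nuclear RNA and 1243 in cytosol, and CTAG2 at 67.8 CPM in mRNA, against 285 in nuclear RNA and 464 in cytosol. A level that low was found for 1161 of 13801 genes, or 8.41%, in vector cells, and for 1087 of 13889, or 7.83%, in FLII cells. Among genes of 500 to 1000 bases the share was 31.0% in vector cells and 29.8% in FLII cells. GAGE1, CTAG1A and CTAG2 were the members at or under 50% of both fractions in both arms, GAGE1 with a stated length above that range.

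How GAGE reads were divided between entries differed between mRNA and RNC on one side and cytosol and nuclear libraries on the other. GAGE1 took 53.9% (53.2 to 54.7) of all GAGE reads in FLII mRNA and 52.7% (51.8 to 53.7) in vector mRNA of H1299. It took 71.0% in nuclear RNA of both arms, 73.7% (73.0 to 74.3) in FLII cytosol and 73.9% (73.3 to 74.4) in vector cytosol. The RNC libraries labelled H1299 vector and HBE shFLII stood between, with 60.6% and 59.3%. Shares within a fraction were close, and shares between fractions differed by more than their counting intervals.

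GAGE8 went the other way, with 14.5% of GAGE reads in FLII mRNA and 12.7% in vector mRNA, against 6.98% in FLII and 7.72% in vector nuclear RNA, and 5.83% in FLII and 5.02% in vector cytosol. GAGE5 took 6.70% in FLII mRNA and 6.33% in vector mRNA, against 2.90% to 3.22% in the 4 cytosol and nuclear libraries. GAGE12E took 13.3% to 16.7% and GAGE4 3.29% to 5.27% over the 6 libraries.

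GAGE12G, whose coding sequence differs from that of GAGE12E at 1 base, was read in mRNA and not in either fraction. It had 580 reads in FLII mRNA and 461 in vector mRNA of H1299, and 0 in each of the 4 H1299 cytosol and nuclear libraries, which allows up to 3 reads in each. The RNC libraries labelled H1299 vector and HBE shFLII had 4525 and 2698 reads of it. Of 10359 entries with at least 100 reads over the 2 H1299 mRNA libraries, GAGE12G was the only 1 with no read in the 4 cytosol and nuclear libraries of that line. The reverse count took 10980 entries with at least 100 reads over the 4 H1299 cytosol and nuclear libraries. Of these, 36 had no read in the 2 H1299 mRNA libraries. GAGE12G was named after these values had been seen. The 6 GAGE members held 94.7% of GAGE reads in FLII mRNA and 93.9% in vector mRNA, 96.3% in both high RNC libraries, and 99.5% to 99.7% in the 4 cytosol and nuclear libraries, so in these 8 libraries the sum over members held all but a small part of the family. In HBE NC mRNA the members had 18 of 22 GAGE reads, and in the RNC library labelled HBE NC 65 of 80.

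**Figure D4:**
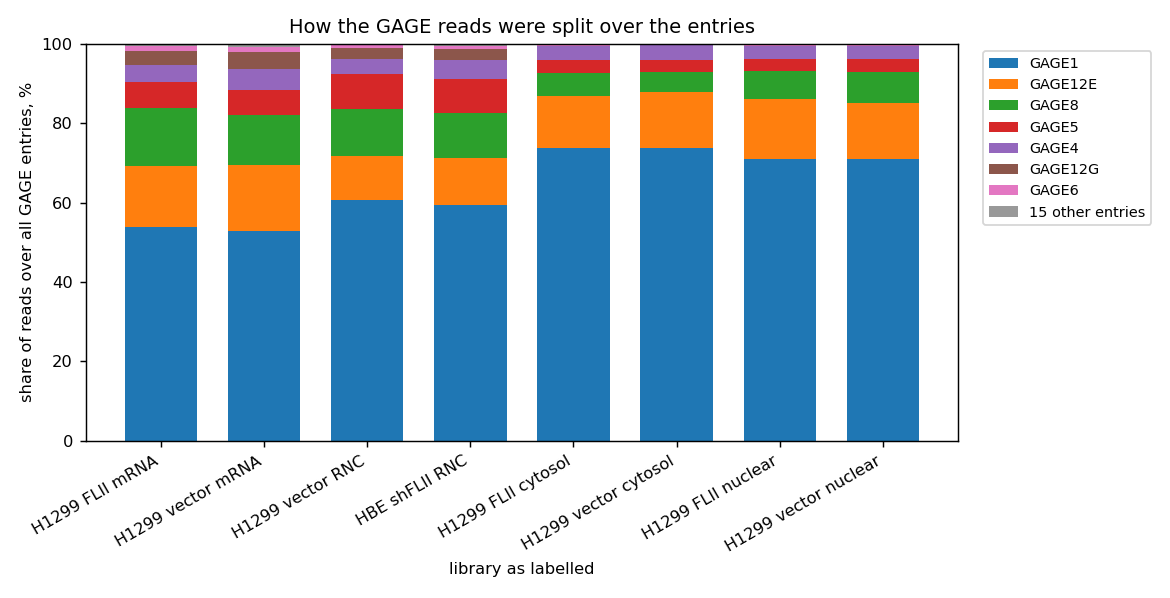
Share of the reads over all 22 GAGE entries held by each entry, in %, in the 8 libraries with high GAGE levels. GAGE1 holds 52.7% to 60.6% in mRNA and RNC and 71.0% to 73.9% in cytosol and nuclear libraries, and GAGE12G is present only in the mRNA and RNC bars.

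CTAG reads were split between few entries. CTAG1A took 80.6% of CTAG reads in FLII mRNA and 80.7% in vector mRNA, 69.8% in FLII and 68.9% in vector nuclear RNA, and 73.5% in FLII cytosol and 72.7% in vector cytosol. CTAG1B, identical to CTAG1A over the 748-base transcript, took 0.0307% to 0.352% in these 6 libraries. Reads of the identical copies were thus listed almost wholly under CTAG1A, and CTAG1A stands for both loci in every value given.

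Between FLII and vector cells the members differed little outside RNC. In mRNA the GAGE sum was 1857 CPM (1828 to 1886) in FLII cells, against 1756 CPM (1722 to 1790) in vector cells, a log2 fold of 0.10 (0.06 to 0.13). The CTAG sum was 391 CPM (377 to 404) in FLII cells, against 354 CPM (339 to 370) in vector cells, a log2 fold of 0.16 (0.08 to 0.24). In cytosol the log2 fold was 0.16 (0.13 to 0.18) for GAGE and 0.18 (0.14 to 0.21) for CTAG. In nuclear RNA it was -0.07 (-0.09 to -0.05) for GAGE and 0.03 (-0.02 to 0.08) for CTAG. FLII itself differed far more, with 210 RPKM in FLII and 70.1 RPKM in vector cytosol, and 252 RPKM in FLII and 67.6 RPKM in vector nuclear RNA.

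GAGE12I was the single member called, lower in FLII mRNA with 5 reads, against 17 in vector mRNA, a log2 fold of -2.11 (-4.03 to -0.74), where 0.468% of genes were called lower and 0.33% higher. It had 2 reads in FLII and 1 in vector cytosol, and 7 in FLII and 3 in vector nuclear RNA, so the other fractions did not carry enough reads to compare. Among the other 7 members the log2 fold ran from -0.22 for GAGE4 to 0.27 for GAGE8 in mRNA, from 0.07 for GAGE4 and GAGE12E to 0.38 for GAGE8 in cytosol, and from -0.22 for GAGE8 to 0.05 for CTAG1A in nuclear RNA. Of 7 members kept in cytosol 0 were called, where 1.04% of genes were called higher and 1.64% lower, and of 7 kept in nuclear RNA 0, where 0.407% were called higher and 0.192% lower. With 1 library a group, a change smaller than the unknown spread between cultures cannot be told from none. The cytosol libraries also differed in epithelial markers, whose 12 genes summed to 150 CPM in FLII cytosol, against 15.7 CPM in vector cytosol, with 7 of 7 kept called higher. In the 4 other H1299 libraries of mRNA and nuclear RNA that sum was 22.2 to 58.4 CPM. The part of these markers in the cytosol values was not tested.

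Of the 7, GAGE8 had the log2 fold of largest size in cytosol and nuclear RNA, and of the highest value in mRNA, with 0.27 (0.18 to 0.37) in mRNA, 0.38 (0.26 to 0.49) in cytosol and -0.22 (-0.29 to -0.14) in nuclear RNA. Its level was 547 RPKM in FLII and 458 RPKM in vector mRNA, 331 RPKM in FLII and 268 RPKM in vector cytosol, and 752 RPKM in FLII and 852 RPKM in vector nuclear RNA. All 3 folds were well under the calling size, and 10.2% of genes in mRNA and 8.66% in cytosol had a log2 fold as high or higher.

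**Figure D5:**
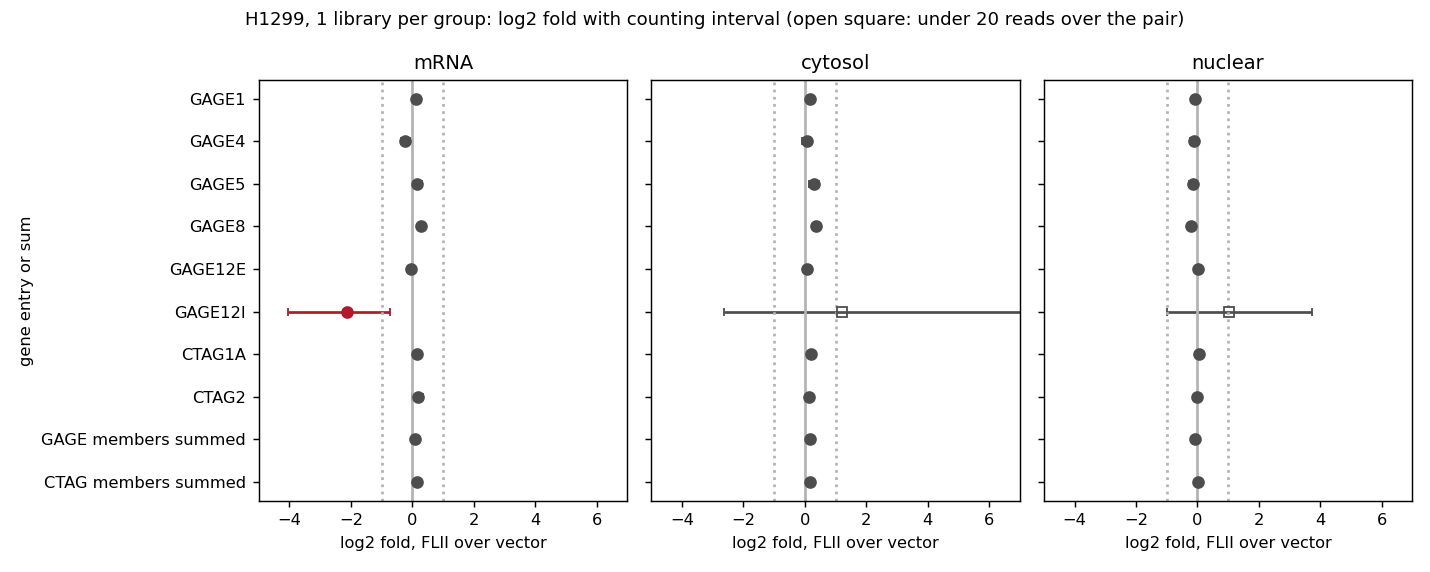
Log2 fold of FLII over vector in H1299 mRNA, cytosol and nuclear RNA for each member and for both sums, with 95% counting intervals. Open squares mark entries under 20 reads over the pair, dotted lines the calling size of 1, and the red point the single call, GAGE12I in mRNA, while the cytosol interval of GAGE12I runs past the axis to 7.53.

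Knockdown of FLII in HBE could be examined only on a few reads. In mRNA the GAGE members had 13 reads in shFLII cells, against 18 in NC cells, and the CTAG members 0 reads in shFLII cells, against 2 in NC cells. In cytosol GAGE had 57 reads in shFLII cells, against 28 in NC cells, a log2 fold of 0.84 (0.18 to 1.56) that stays under the calling size, and CTAG had 14 in shFLII cells, against 11 in NC cells. In nuclear RNA GAGE had 23 reads in shFLII cells, against 25 in NC cells, and CTAG had 10 in shFLII cells, against 9 in NC cells. No member reached 20 reads over the pair in mRNA, where 2.02% of genes were called higher and 2.93% lower, and GAGE1 alone did in cytosol, with 38 reads in shFLII and 22 in NC cells, and in nuclear RNA, with 16 in shFLII and 19 in NC cells. GAGE1 was not called in either fraction, where 0.625% of genes in cytosol were called higher and as many lower, and 0.55% in nuclear RNA were called higher and 0.323% lower. At this depth, a loss of GAGE or CTAG RNA in HBE was not detectable, since the control level itself lay near the limit. The GAGE sum in HBE shFLII mRNA was 0.0986% of that in H1299 vector mRNA.

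Among the RNC libraries the members were high under labels of both lines. GAGE1 had 12 reads in the library labelled H1299 FLII, 97081 in the one labelled H1299 vector, 59307 in the one labelled HBE shFLII and 45 in the one labelled HBE NC. CTAG1A followed the same order of libraries with 12, 104748, 60008 and 46 reads. The GAGE sum was 0.727 CPM (0.483 to 1.05) in the library labelled H1299 FLII, against 4100 CPM (4080 to 4121) in the one labelled H1299 vector, a log2 fold of -12.65 (-13.27 to -12.15). The CTAG sum was 0.364 CPM (0.199 to 0.61) in the library labelled H1299 FLII, against 3298 CPM (3280 to 3317) in the one labelled H1299 vector, a log2 fold of -13.31 (-14.23 to -12.62).

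All 8 members were called lower between these labels, where 23% of genes were called lower and 26.1% higher. GAGE12E, with 0 reads in the library labelled H1299 FLII and 17869 in the one labelled H1299 vector, was at least 7084-fold lower against 3 reads. Between the labels H1299 vector and HBE NC all 8 were called higher, where 25.6% of genes were called higher and 32.8% lower, with log2 folds of 12.04 (11.71 to 12.43) for GAGE and 11.75 (11.42 to 12.15) for CTAG. FLII RNA was 5.61 RPKM in the RNC library labelled H1299 FLII, below the 36.5 RPKM of the one labelled HBE NC and the 30.0 RPKM of the one labelled HBE shFLII. Epithelial markers summed to 5920 CPM in the RNC library labelled H1299 FLII and 16.9 CPM under the label H1299 vector. Their sum was 2137 CPM under HBE NC and 68.9 CPM under HBE shFLII. What separates the labelled RNC libraries, the condition or the cell line, was not tested.

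Other genes typical of H1299 give a scale for these levels. Of 248 genes at 5 CPM or more and at least 50 times higher in H1299 than in HBE, by mean mRNA and nuclear CPM, with members and their families left out, the median level was 1.04% of that in H1299 vector cytosol in the RNC library labelled H1299 FLII, 39.5% in the one labelled H1299 vector, 44.7% in the one labelled HBE shFLII and 4.45% in the one labelled HBE NC. The GAGE sum stood at 0.0262%, 148%, 130% and 0.0685% in the same 4 libraries, and the CTAG sum at 0.0213%, 193%, 160% and 0.110%. In the 2 low libraries both sums were thus lower than the median of the typical genes, and in the 2 high ones higher. GAGE12I had 1 read in the RNC library labelled HBE NC and 1 read in the base, H1299 vector cytosol. Its 27.0% there was above that median but rests on too few reads to compare. GAGE12I was the member whose level differed most between the 2 high libraries, with 4.98 RPKM under the label H1299 vector and 16.4 RPKM under HBE shFLII.

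Other cancer-testis genes were followed in the same comparisons. Of 109 such genes listed from the MAGE, PAGE and XAGE, SSX, SPANX, CT45, CT47 and CSAG families and single genes, 22 had 20 reads over the pair in mRNA, of which 19 were called higher in H1299 vector and 2 lower (CTAGE5 and ACRBP). In cytosol 19 of 21 were called higher and 1 lower (MAEL), and in nuclear RNA 21 of 22 higher and 0 lower. The shares of all genes called higher were 21.2% in mRNA, 26.7% in cytosol and 22.3% in nuclear RNA. The shares called lower were 22.4% in mRNA, 22.2% in cytosol and 23.1% in nuclear RNA. Between the RNC labels H1299 vector and HBE NC, 18 of 22 listed genes were called higher and 1 lower. Of all genes, 25.6% were called higher between these labels and 32.8% lower. None of 11 SSX and none of 12 SPANX genes reached 5 CPM in any of the 6 H1299 libraries outside RNC, nor in the 6 of HBE. A gene near 0 in HBE was kept only through its H1299 reads, so the calls of kept genes are partly set by that filter. The list was drawn up with earlier results of these data known.

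MAGEA4, of the MAGE family whose proteins bind ubiquitin ligases, took most reads of them. Ranges here are for the 6 H1299 and 6 HBE libraries outside RNC. MAGEA4 ran from 547 to 738 CPM in H1299 and had at most 0.846 CPM in HBE. XAGE1A, an X-linked relative of GAGE, ran from 212 to 646 CPM in H1299 and reached 1.37 CPM in HBE. PRAME, an antigen first found in melanoma, ran from 83.3 to 259 CPM in H1299 and reached 0.338 CPM in HBE. In RNC, PRAME had more reads in the library labelled HBE NC, with 1270, than in the one labelled H1299 vector, with 522. XAGE1A had fewer under the label HBE NC, with 377 reads, than under H1299 vector, with 3626. MAGEA3 ran from 166 to 255 CPM and MAGEA12 from 120 to 160 CPM in H1299. XAGE1B, MAGEA2, MAGEA10, MAGEA6, PASD1, CSAG2 and MAGEA1 had highest values between 80.5 and 158 CPM.

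Between the fractions these genes were called in both directions, at shares near those of all genes. In vector cells CSAG2 had 257 reads in nuclear RNA, against 703 in cytosol, a log2 fold of -1.22 (-1.44 to -1.02), and PRAME had 1618 reads in nuclear RNA, against 853 in cytosol, a log2 fold of 1.152 (1.03 to 1.27). Of 25 kept, 5 were called higher and 4 lower in vector cells, where 14.8% of all genes were called higher and 12.7% lower. In FLII cells 5 of 25 were called higher and 3 lower, where 17.9% of all genes were called higher and 18.3% lower. In RNC over mRNA, for the libraries labelled H1299 vector, 7 of 26 were called higher, led by CSAG3, CSAG2, CSAG1 and CSAG4, and 9 lower, led by TPTE, CTCFL, MAGEA1 and PRAME, where 32.6% of all genes were called higher and 31.6% lower. MAGEA1 had 142 reads in RNC, against 471 in mRNA, with a log2 fold of -2.19 (-2.48 to -1.93). Under FLII overexpression 1 of 26 was called higher in mRNA (ACRBP, with 21 reads in FLII and 5 in vector cells), 0 of 22 in cytosol and 1 of 25 in nuclear RNA (TPTE, with 35 reads in FLII and 15 in vector cells), and none lower. Of all genes, 0.33% were called higher in mRNA, 1.04% in cytosol and 0.407% in nuclear RNA. The shares called lower were 0.468% in mRNA, 1.64% in cytosol and 0.192% in nuclear RNA.

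Genes whose level followed the members most closely over the 6 H1299 libraries of mRNA, cytosol and nuclear RNA were sought among 329 genes with a mean of at least 5 CPM in H1299 and 50 times the HBE mean. Likeness was the root mean square difference of centred log2 CPM, so a smaller value is a closer profile. For the GAGE sum the nearest were XAGE1A at 0.0972, RCN3 at 0.117, CD40 at 0.169, APOE at 0.206 and C1QL4 at 0.232. XAGE1A had 632 CPM in FLII and 646 CPM in vector nuclear RNA, 306 CPM in FLII and 333 CPM in vector cytosol, and 240 CPM in FLII and 212 CPM in vector mRNA, the same order of fractions as the GAGE sum.

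For CTAG1A the nearest were A1BG at 0.0274, HBQ1 at 0.128, PPP1R14A at 0.134, DSCR8 at 0.135 and FAM27C at 0.146. For CTAG2 they were ISG15 at 0.160, H2AFB1 at 0.165, CSAG4 at 0.226, MYL4 at 0.297 and HOXD-AS2 at 0.313. ISG15, a ubiquitin-like protein induced by interferon, had 2467 CPM in FLII and 2358 CPM in vector nuclear RNA, 3641 CPM in FLII and 3083 CPM in vector cytosol, and 472 CPM in FLII and 486 CPM in vector mRNA. These profiles share libraries, depth and the fraction differences described above, and 6 libraries of 1 line are few.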

How the data were processed

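Read counts per RefSeq gene, with splice variants merged, were deposited by the authors beside RPKM, the same counts divided by the stated gene length and the library's total, per the file headers. Recomputing RPKM from the counts gave the deposited RPKM. The genome build was GRCh37 (hg19), per the submitters' processing notes. For the aligner, the counter and reads that match several copies, the method is not given in the sources used here. RNC RNA was pelleted through sucrose from cycloheximide-treated lysates, per the labels' protocols.

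Each comparison used 1 library per group, so no test of conditions was run. Counts were scaled by TMM (edgeR 4.0.16, R 4.3.3) over all genes of a pair, with DESeq2 1.42.0 size factors, total counts and deposited RPKM with 1 added as alternatives. Folds had 0.5 reads added, a minimum of 20 reads over the pair and an exact binomial 95% interval. A call needed a log2 fold of 1 in size and an interval without 0. A count of 0 was taken as 3 reads for bounds. Scripts ran in Python 3.11.15 with scipy 1.17.1, numpy 2.4.6, pandas 2.3.3 and Biopython 1.88 and were tested on simulated data.

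Members and gene lists were chosen with earlier results of these data known. The other cancer-testis genes named were those at 5 CPM or more in H1299, at most 12, and at most 4 calls a direction in each comparison, ordered by the interval bound nearest 0. The GAGE to CTAG ratio and the search for entries without reads in both fractions were added after the values had been seen.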

Additional observations from a re-analysis of the deposited data

Results flagged for a closer look

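Several members had FLII over vector folds of opposite sign in different fractions, each with a counting interval that excludes 0. None of these differences was tested, since each group is 1 library. For the RNC libraries as labelled the log2 fold was -13.17 for GAGE1, -10.92 for GAGE5, -11.56 for GAGE8, -13.28 for CTAG1A and -13.14 for CTAG2. It was -12.65 for the GAGE sum and -13.31 for the CTAG sum. In mRNA, cytosol or both, the same entries were above 0. FLII itself and the genes typical of each line also went against these RNC labels.

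In nuclear RNA the log2 fold was -0.0709 for GAGE1, -0.14 for GAGE5, -0.22 for GAGE8 and -0.0705 for the GAGE sum. In mRNA it was 0.12 for GAGE1, 0.17 for GAGE5, 0.27 for GAGE8 and 0.10 for the GAGE sum, and in cytosol 0.16 for GAGE1, 0.29 for GAGE5, 0.38 for GAGE8 and 0.16 for the GAGE sum. All of these are under the calling size.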

How the results depend on the processing

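No paired analysis was run: each group is 1 library, and a fit with the fraction as a block was not made. The H1299 over HBE folds of the GAGE and CTAG sums stayed between 8.37 and 12.2, RNC labels included, under the 7 alternatives run. The FLII over vector folds outside RNC stayed between -0.07 and 0.19. For nuclear over cytosol in vector cells, total counts put the GAGE sum at 1.045 and the CTAG sum at -0.88, and deposited RPKM put them at 1.13 and -0.90. In FLII cells total counts put the CTAG sum at -0.92, and deposited RPKM put it at -0.93 and the GAGE sum at 1.005. The calls of these sums changed with the scaling and their signs did not. The HBE cytosol GAGE sum of shFLII over NC passed the calling size with deposited RPKM, at 1.011. For RNC over mRNA under the label H1299 vector, GAGE12I turned to -0.19 with total counts and to -0.16 with deposited RPKM, and the sums were as low as 1.071 for GAGE and 3.219 for CTAG.

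With H1299 vector mRNA as the base in place of cytosol, the GAGE sum stood at 0.0414% and the CTAG sum at 0.103% in the RNC library labelled H1299 FLII. Under the label H1299 vector the typical median was 14.2%, GAGE 234% and CTAG 931%. Under HBE shFLII these were 19.4%, 205% and 769%, and under HBE NC GAGE was 0.108% and CTAG 0.527%.

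The number of genes called moved with the filter and the scaling. For FLII over vector it was 43 higher (2 to 66) and 61 lower (2 to 102) in mRNA, 130 higher (28 to 241) and 206 lower (39 to 280) in cytosol, and 53 higher (4 to 94) and 25 lower (0 to 65) in nuclear RNA. For shFLII over NC it was 255 higher (107 to 376) and 370 lower (167 to 449) in mRNA, 68 higher (1 to 113) and 68 lower (8 to 114) in cytosol, and 68 higher (5 to 98) and 40 lower (9 to 79) in nuclear RNA. For nuclear over cytosol it was 1927 higher (1216 to 3049) and 1648 lower (567 to 1817) in vector cells, and 2287 higher (1391 to 4408) and 2339 lower (738 to 2501) in FLII cells. For RNC over mRNA it was 4448 higher (1023 to 4769) and 4312 lower (3293 to 9377). For H1299 over HBE it was 2845 higher (1814 to 3603) in mRNA, 3385 higher (1983 to 4856) and 2824 lower (1617 to 3214) in cytosol, 2944 higher (1607 to 3628) in nuclear RNA, and 3754 higher (1181 to 4180) and 4805 lower (3935 to 7988) between the RNC labels. Between the RNC labels H1299 FLII and vector, 3260 were lower (1270 to 3697). Members with few reads in HBE, and GAGE12I outside the RNC libraries labelled H1299 vector and HBE shFLII, are limited by depth.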
